A study of Mus musculus with 6 samples.

Results

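WNT pathway modulators and the R-spondin receptors Lgr4 and Lgr6 were followed in mouse hearts. The 10 symbols were chosen by measured values of this same comparison, namely the fall of Lgr6 counts. All 10 were found by name among 25361 listed genes. They are Lgr4, Lgr6, Fzd4, Lrp5, Lrp6, Sfrp1, Sfrp2, Frzb, Dkk3 and Axin2. Hearts came from male wild-type C57BL/6N mice labelled as 12 weeks old. Whether that is the age at the start of treatment or at collection is not stated. Controls were untreated (n = 3), and the other mice had received ISO+L-NAME for 6 weeks (n = 3), a treatment the series title gives as a model of HFpEF. L-NAME inhibits nitric oxide synthase. The labels name no heart chamber and no cell fraction, so fewer cells of a type and less RNA per cell cannot be told apart in any value below.

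WNT proteins bind frizzled receptors and the co-receptors LRP5 and LRP6, which stops the breakdown of beta-catenin and lets it act with TCF/LEF factors on target genes. R-spondins bind LGR4, LGR5 or LGR6 and protect frizzled receptors from removal by the ubiquitin ligases ZNRF3 and RNF43. Secreted frizzled-related proteins hold WNT ligands away from the receptors, and Axin2 is both a scaffold of the beta-catenin destruction complex and one of its most widely used target genes. In the adult heart the pathway is known for low activity at rest and for its study in injury and fibrosis.

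Libraries were read from the 3′ end of messages, so counts do not grow with message length and levels of different genes can be set side by side in counts per 1000000 (CPM). They held 2217974 to 2637364 counts each, and 1 count was worth 0.332 to 0.500 CPM after scaling by the trimmed mean of M-values (TMM). All 8 cardiomyocyte markers were detected, at a summed 37365 to 39815 CPM over the 6 libraries. In edgeR's quasi-likelihood test 520 of 8531 tested genes passed at an adjusted p under 0.05, of which 56.0% were higher in treated hearts. Without control 1 the number was 301. Total-count scaling called 1479, of which 95.1% were higher, and shifted the median log2 change by 0.30 upward from TMM. The mitochondrial share of counts was 53.6% to 56.7% in controls and 45.5% to 47.8% in treated hearts.

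The windows around the annotated start sites of 4 members, 250 bases before to 50 after, are shown because these are the promoters of the 2 LGR receptors and of 2 secreted inhibitors whose counts were higher in treated hearts. Sequences are from RefSeq on GRCm38.p6, another build than that of the counts, and run 5′ to 3′ on the gene's strand with each CpG pair in capitals. Their positions are Lgr6 chr1:135105227-135105526, minus strand; Lgr4 chr2:109917397-109917696, plus strand; Sfrp2 chr3:83766071-83766370, plus strand; and Frzb chr2:80447347-80447646, minus strand.
Lgr6: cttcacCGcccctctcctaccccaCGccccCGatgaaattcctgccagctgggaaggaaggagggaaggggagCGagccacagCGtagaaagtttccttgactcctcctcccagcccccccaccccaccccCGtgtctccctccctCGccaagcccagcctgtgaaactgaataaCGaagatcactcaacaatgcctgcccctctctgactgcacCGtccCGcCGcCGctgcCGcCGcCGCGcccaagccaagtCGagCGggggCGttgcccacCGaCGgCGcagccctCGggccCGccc
Lgr4: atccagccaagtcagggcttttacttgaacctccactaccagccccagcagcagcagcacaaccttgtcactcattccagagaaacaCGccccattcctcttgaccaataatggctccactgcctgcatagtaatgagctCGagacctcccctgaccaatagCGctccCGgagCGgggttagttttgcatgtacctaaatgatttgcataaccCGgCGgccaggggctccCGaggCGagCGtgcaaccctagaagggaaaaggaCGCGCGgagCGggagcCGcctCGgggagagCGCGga
Sfrp2: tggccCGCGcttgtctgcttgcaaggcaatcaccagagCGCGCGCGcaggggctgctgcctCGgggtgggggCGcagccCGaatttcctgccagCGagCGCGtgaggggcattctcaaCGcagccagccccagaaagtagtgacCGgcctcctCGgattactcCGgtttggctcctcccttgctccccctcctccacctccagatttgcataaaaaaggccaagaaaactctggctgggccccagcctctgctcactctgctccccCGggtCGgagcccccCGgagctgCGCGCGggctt
Frzb: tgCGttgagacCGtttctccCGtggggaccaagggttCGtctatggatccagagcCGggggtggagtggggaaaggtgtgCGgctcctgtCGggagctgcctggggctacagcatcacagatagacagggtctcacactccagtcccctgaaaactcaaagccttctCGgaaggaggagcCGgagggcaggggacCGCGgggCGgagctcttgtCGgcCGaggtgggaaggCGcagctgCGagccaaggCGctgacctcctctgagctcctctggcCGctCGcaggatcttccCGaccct

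Promoter windows were matched for 6 of the 10 genes (Lgr4, Lgr6, Sfrp2, Frzb, Axin2 and Fzd4), and Sfrp1, Dkk3, Lrp5 and Lrp6 were not matched. The 6 windows held 18 CpG pairs (Lgr4) to 32 (Fzd4), with 24 in Lgr6, 22 in Sfrp2, 20 in Frzb and 31 in Axin2. The median was 21 in the 8829 windows of tested genes and 7 in all 32841 windows. The TCF/LEF words CTTTGAA or CTTTGAT or CTTTGTA or CTTTGTT, read on both strands, were in none of the 6 windows, Axin2 included. They were in 10.7% of windows of tested genes and 16.9% of all windows, and no match says only that these letters are not in the window.

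Lgr6 was the second most abundant of the 10 messages in control hearts and the one chosen for its fall. The gene (ENSMUSG00000042793) lies on chromosome 1 (134911039 to 135033014, minus strand, on GRCm39, as for every gene position that follows). It had 67, 63 and 85 counts in control hearts, against 37, 38 and 18 in treated ones. On the TMM scale these were 30.6, 31.5 and 40.9 CPM against 12.3, 14.9 and 6.99 CPM. Every treated heart lay below every control, with control 3 the highest and ISO+L-NAME 3 the lowest. The mean level was 34.3 ± 5.72 CPM in controls and 11.4 ± 4.05 CPM in treated hearts (SD, n = 3), or 3.01-fold lower, and the fitted log2 change was -1.58 ± 0.23 (SE). It ranked 14 from the lowest among the log2 changes of the 8531 tested genes. No test is given because the gene was picked for this difference. With total counts alone the log2 change was -1.28, and without any 1 library it ran from -1.81 to -1.34.

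Lgr4, the broadly expressed relative of Lgr6 (ENSMUSG00000050199, chromosome 2, 109747992 to 109844602, plus strand), had 17, 12 and 16 counts in control hearts, against 33, 20 and 23 in treated ones. Its level was 7.15 ± 0.996 CPM in controls and 9.25 ± 1.57 CPM in treated hearts (SD, n = 3). The groups did not overlap, by a narrow margin, since the highest control was at 7.76 and the lowest treated heart at 7.86 CPM. The log2 difference of 0.37 ± 0.28 did not pass (edgeR adjusted p = 0.557), with a 95% interval from -0.21 to 0.96. Lgr5, the remaining receptor of the family, had 2 counts in control 3 and 0 in every other library.

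Lgr6 therefore made up most of the Lgr4 and Lgr6 counts in controls and a smaller part in treated hearts. Its share was 79.8%, 84.0% and 84.2% in controls, a mean of 82.6% ± 2.49 (SD, n = 3). In treated hearts it was 52.9%, 65.5% and 43.9%, a mean of 54.1% ± 10.9 (SD, n = 3). The 95% Wilson intervals of single libraries reached down to 70.0% in control 1 and up to 76.4% in ISO+L-NAME 2, so counting error alone lets the nearest hearts of the 2 groups meet. This share does not depend on the scaling. It rests on the values for which Lgr6 was chosen and is a description.

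**Figure D1:**
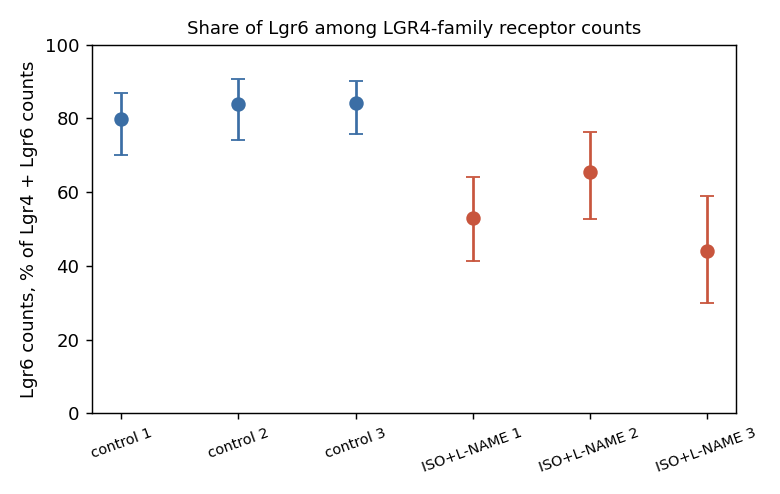
Share of Lgr6 among the counts of Lgr4 and Lgr6 in each library (y axis, percent), with bars for the 95% Wilson interval of counting error. Controls (blue) sit between 79.8% and 84.2% and treated hearts (red) between 43.9% and 65.5%.

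Markers of other cells stood as follows beside Lgr6. The cardiomyocyte list was at 0.961 times the control level. Of its 8 tested markers Myh6 and Mb were called lower, Actc1 and Ryr2 higher and 4 not called, against 6.10% called over all tested genes. Lgr6 counts per 1000 Myh6 counts were 4.48, 4.51 and 5.61 in control hearts, against 2.20, 2.55 and 1.32 in treated ones. Myh6 is not a steady reference here, since it differed by -0.33 ± 0.09 on the log2 scale (edgeR adjusted p = 0.0272). Epicardial and mesothelial markers, 7 of 7 detected and 0 tested, summed to 5.003 to 17.3 CPM in controls and 1.33 to 2.72 CPM in treated hearts. The ventricular myocyte list summed to 17052 to 18707 CPM in control hearts and 12046 to 13690 in treated ones, with the light chain genes Myl2 and Myl3 called lower among 3 tested. Smooth muscle and pericyte markers, of which Acta2 was called higher and Myh11 lower among 11 tested, summed to 571 to 734 CPM in control hearts and 593 to 682 in treated ones. With total counts alone the lower calls of Myh6, Mb, Myl2, Myl3 and Myh11 were lost, while Actc1, Ryr2 and Acta2 were still called higher. The part of these cells in the Lgr6 difference was not tested.

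By the rule for likeness, the 5 genes whose log2 CPM followed Lgr6 most closely over the 6 libraries, among 7905 compared, were Hrc, 0610010K14Rik, Stard10, Cdkn1c and Auts2. Pearson's r ran from 0.994 for Auts2 to 0.998 for Hrc. The points are 2 groups of 3 hearts, so any gene that separates the groups gains a high r, and the same libraries and scaling enter both sides. Hrc, which encodes a histidine-rich calcium-binding protein of the sarcoplasmic reticulum, was at 706, 694 and 764 CPM in control hearts, against 497, 550 and 422 CPM in treated ones. As for Lgr6, control 3 was the highest library and ISO+L-NAME 3 the lowest, a likeness that the choice of Hrc by r brings with it. Auts2 was at 51.1, 44.5 and 56.3 CPM in control hearts, against 22.3, 24.4 and 13.2 CPM in treated ones.

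None of the 3 receptors of WNT ligands themselves passed the test. Fzd4, a frizzled receptor that also binds norrin and is known for its role in vessels (ENSMUSG00000049791, chromosome 7, 89053563 to 89062342, plus strand), was the most abundant of the 10 genes. It had 85, 97 and 116 counts in control hearts, against 144, 116 and 121 in treated ones, which TMM scaling brought to 38.8, 48.5 and 55.8 CPM against 47.8, 45.6 and 47.0 CPM. The treated hearts lay within the range of the controls. Endothelial markers, 0 of 10 called, summed to 479 to 595 CPM in control hearts and 453 to 524 CPM in treated ones. The log2 difference was -0.02 ± 0.15 (edgeR adjusted p = 0.961), with a 95% interval from -0.33 to 0.28.

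Lrp6 (ENSMUSG00000030201, chromosome 6, 134423439 to 134543928, minus strand) was at 19.3 ± 1.62 CPM in controls and 21.6 ± 0.604 CPM in treated hearts (SD, n = 3). All treated hearts were above all controls, from 20.7 in control 3 to 20.9 CPM in ISO+L-NAME 1 at the nearest. The log2 difference of 0.16 ± 0.19 did not pass (edgeR adjusted p = 0.731; 95% interval -0.23 to 0.55). Its relative Lrp5 (ENSMUSG00000024913, chromosome 19, 3634828 to 3736564, minus strand) had 13, 11 and 10 counts in control hearts, against 14, 12 and 15 in treated ones, or 5.42 ± 0.564 and 5.06 ± 0.659 CPM (SD, n = 3). The groups overlapped and the log2 difference was -0.10 ± 0.33 (edgeR adjusted p = 0.928; 95% interval -0.79 to 0.59). With total counts alone the log2 differences were 0.28 for Fzd4, 0.46 for Lrp6 and 0.20 for Lrp5, none past the threshold. The first and last of these change sign with the scaling.

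Of the secreted modulators Sfrp1 and Frzb rose in treated hearts, the call of Frzb depending on the setting, while Sfrp2 and Dkk3 had more counts there but too few to be tested in the same fit. Sfrp1, the main member of the family here (ENSMUSG00000031548, chromosome 8, 23901518 to 23939648, plus strand), had 23, 18 and 32 counts in control hearts, against 107, 77 and 102 in treated ones. All treated hearts were far above all controls, with ISO+L-NAME 2 the lowest of the former at 30.3 CPM and control 3 the highest of the latter at 15.4 CPM. Sfrp1 averaged 11.6 ± 3.35 CPM in control hearts and 35.1 ± 4.68 CPM in treated ones (SD, n = 3). It rose 3.02-fold, or 1.59 ± 0.21 on the log2 scale (edgeR adjusted p = 5.60e-05). All 15 alternative fits called it higher, with log2 changes of 1.43 to 1.89.

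Frzb, also called secreted frizzled-related protein 3 (ENSMUSG00000027004, chromosome 2, 80242314 to 80277969, minus strand), had 8, 5 and 4 counts in control hearts, against 24, 13 and 20 in treated ones. The groups did not overlap, with the highest control at 3.65 CPM and the lowest treated heart at 5.11 CPM. It rose by 1.35 ± 0.39 on the log2 scale (edgeR adjusted p = 0.0403), but it passed the filter on low counts through the treated hearts alone, so a difference was built into its being tested. The log2 change stayed positive in all 15 alternative fits, from 1.16 to 1.65. It was 1.37 with DESeq2 and 1.30 with limma-voom, which did not call it (adjusted p = 0.197 and 0.0803). The edgeR call was also lost when any library but ISO+L-NAME 2 was left out. The log2 change and adjusted p were then 1.63 and 0.0657 (control 1), 1.29 and 0.126 (control 2), 1.16 and 0.146 (control 3), 1.23 and 0.138 (ISO+L-NAME 1), and 1.27 and 0.134 (ISO+L-NAME 3).

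Sfrp2, which is known from heart and other tissues as a fibroblast product (ENSMUSG00000027996, chromosome 3, 83673628 to 83681623, plus strand), did not pass the count filter. It had 5, 2 and 4 counts in control hearts, against 51, 9 and 16 in treated ones. ISO+L-NAME 1 held most of the treated counts, and the lowest treated heart, at 3.54 CPM, was still above the highest control at 2.28 CPM. The ratio of pooled, scaled counts was 5.33 (95% exact interval 2.82 to 11.1), and 2.78 (1.32 to 6.27) without ISO+L-NAME 1. In a fit with no filter the log2 change was 2.36 ± 0.42 (edgeR adjusted p = 2.06e-06). The treated SD was 7.09 CPM on a mean of 8.90 CPM (n = 3), so this p is not read as support for a rise. With a filter at a mean of 5 CPM the log2 change was 2.35 ± 0.57, with a much larger p (edgeR adjusted p = 0.0163). Controls averaged 1.74 CPM, so Sfrp2 passed that filter through the treated hearts alone. A difference was thus built into its being tested.

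Dkk3, a divergent member of the Dickkopf family (ENSMUSG00000030772, chromosome 7, 111715224 to 111758264, minus strand), had 4, 0 and 4 counts in control hearts, against 22, 5 and 9 in treated ones. It was not tested either. The groups were all but touching, with 1.93 CPM in control 3 and 1.97 CPM in ISO+L-NAME 2, and again ISO+L-NAME 1 was the highest. The ratio of pooled, scaled counts was 3.47 (95% exact interval 1.59 to 8.64). Without ISO+L-NAME 1 it was 2.14, with an interval of 0.839 to 5.90 that includes no change. The fit with no filter gave a log2 change of 1.74 ± 0.55 (edgeR adjusted p = 0.0342). This p is not read as support either, as the treated SD was 2.75 CPM on a mean of 4.26 CPM (n = 3).

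Together the 5 secreted frizzled-related genes, Sfrp4 and Sfrp5 included, had 36, 27 and 40 counts in control hearts, against 187, 102 and 139 in treated ones. On the TMM scale their sum was 16.4, 13.5 and 19.3 CPM against 62.1, 40.1 and 54.0 CPM. Sfrp1 was the largest part in every library, from 57.2% in ISO+L-NAME 1 to 80.0% in control 3. The part of Sfrp2 was 7.41% to 13.9% in control hearts, against 8.82%, 11.5% and 27.3% in treated ones, with ISO+L-NAME 1 the only library above the range of the controls. Sfrp4 had at most 1 count and Sfrp5 at most 4 in any library.

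**Figure D2:**
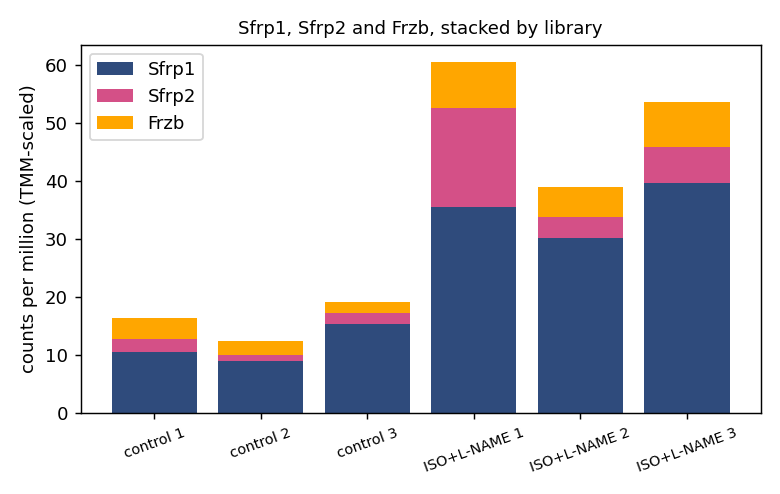
Levels of Sfrp1, Sfrp2 and Frzb in each library, stacked (y axis, TMM-scaled counts per 1000000). Every treated heart stands above every control, and the Sfrp2 layer is widest in ISO+L-NAME 1, at 16.9 CPM.

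Some fibroblast markers rose as well. The summed level of 10 markers, all detected, was 771 to 1061 CPM in controls and 1056 to 1220 CPM in treated hearts, so the groups just overlapped, and the mean was 1.23 times higher. Of 9 tested, 3 were called higher, 0 lower and 6 not called, against 3.41% called higher over all tested genes. The log2 change was positive in 8 of the 9. The groups did not overlap in 7, against 22.7% of all tested genes. The called markers were the matrix genes Lum and Mfap5 and the peptidase inhibitor Pi16, at log2 changes of 1.00 ± 0.22, 1.83 ± 0.22 and 1.22 ± 0.27 (edgeR adjusted p = 0.00613, 1.32e-05 and 0.00748). Control 2 was under the filter for Pi16 and Medag, at 9 and 7 counts. Dpt, Dcn and Medag, not called, were also higher in all treated hearts than in all controls (log2 0.51, 0.29 and 0.74), and Dpep1 lower (-0.48). With total counts alone Dpt, Dcn, Medag and Gsn were called higher too, while Dpep1 and Pdgfra were not called. That scaling called 1407 of all 8531 tested genes higher. Pdgfra, the receptor used to define cardiac fibroblasts, differed by 0.17 ± 0.25 (edgeR adjusted p = 0.798). There were 1.15, 1.06 and 1.39 Sfrp1 counts for each Pdgfra count in control hearts, against 2.89, 2.96 and 4.08 in treated ones. Taken against each of the 10 markers in the same way, the ratio was higher in all treated hearts than in all controls for 6. It overlapped between groups for 3 (Lum, Mfap5 and Pi16, the markers called higher with TMM). For 1 marker, which had 0 counts in a library, it could not be formed. Per Mfap5 count there were 0.575, 0.750 and 0.696 Sfrp1 counts in control hearts, against 0.677, 0.583 and 0.474 in treated ones. What part the number or state of fibroblasts had in the differences of Sfrp1, Sfrp2, Frzb and Dkk3 was not tested.

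Axin2 (ENSMUSG00000000142, chromosome 11, 108811175 to 108841609, plus strand) had 3, 1 and 3 counts in control hearts, against 1, 1 and 6 in treated ones. Its groups overlapped, and the ratio of pooled, scaled counts was 0.881 (95% exact interval 0.279 to 2.85). A difference within that interval, in either direction, was not detectable at this depth. Without ISO+L-NAME 3, which held most of the treated counts, the ratio was 0.322 (0.0327 to 1.69).

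**Figure D3:**
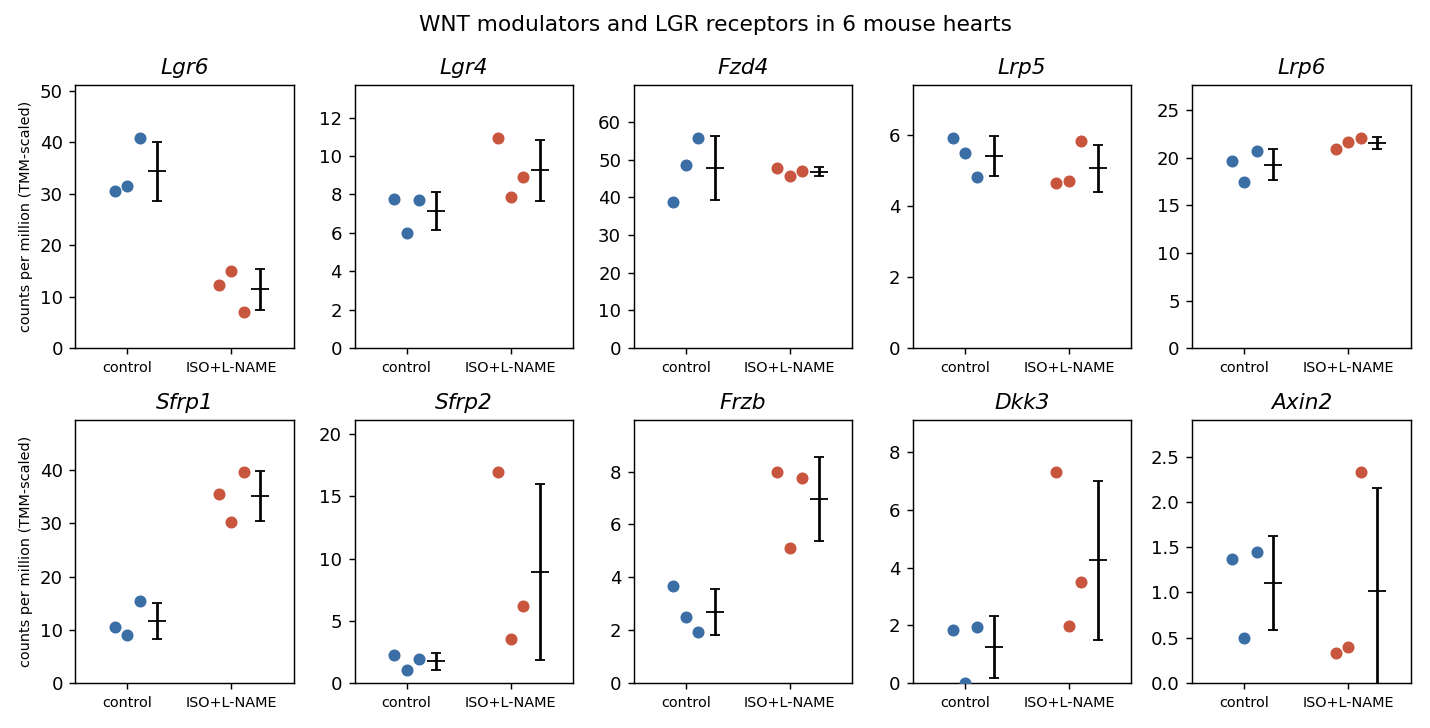
Levels of the 10 genes in each heart (points, TMM-scaled counts per 1000000, 1 panel per gene with its own axis from 0), with the mean and SD of 3 libraries as black bars, cut at 0. Lgr6 is lower and Sfrp1 higher in all treated hearts (red) than in all controls (blue), while Fzd4, Lrp5 and Axin2 overlap.

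By level, the order in controls was Fzd4, Lgr6, Lrp6, Sfrp1, Lgr4, Lrp5, Frzb, Sfrp2, Dkk3 and Axin2. Fzd4 and Lgr6 lay within their summed SDs of each other, as did each neighbouring pair from Frzb to Axin2. In treated hearts the order was Fzd4, Sfrp1, Lrp6, Lgr6, Lgr4, Sfrp2, Frzb, Lrp5, Dkk3 and Axin2. There Sfrp1 took the second place at 35.1 CPM and Lgr6 the fourth at 11.4 CPM, and from Lgr6 down no gene was separated from the next by more than the SDs.

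Counted over the list, 7 of 10 genes passed the filter, and Frzb did so through 1 group only. Of the 7, 2 were called higher (Sfrp1 and Frzb), 1 lower (Lgr6) and 4 were not called, so 3 were called, against a background of 3.41% higher, 2.68% lower and 6.10% in either direction over all tested genes. The groups did not overlap in 5 of the 7, against 22.7% of all tested genes. Lgr6 chose the list in this same contrast, so nothing is read from these shares. The median log2 change was 0.16 over the 7 and -0.01 over all genes tested.

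**Figure D4:**
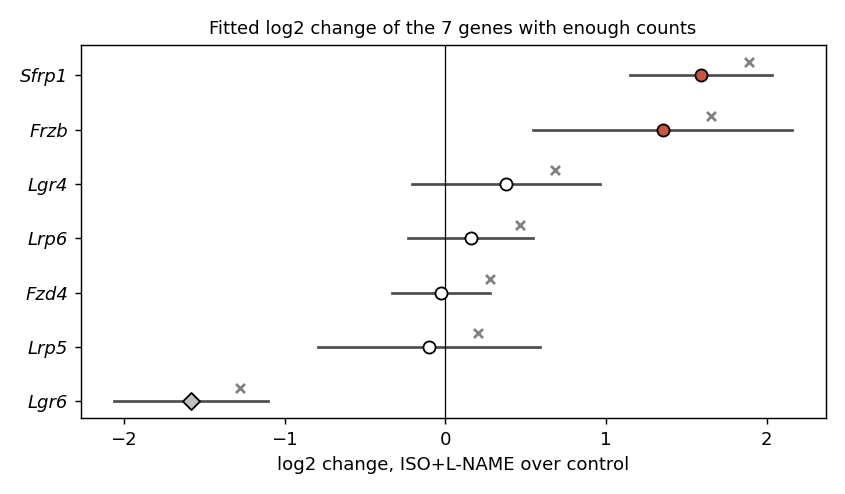
Fitted log2 change, ISO+L-NAME over control, of the 7 genes with enough counts (points, with the 95% interval as a line; red, called higher; white, not called; grey diamond, Lgr6, chosen for its fall). Grey crosses give the log2 change with total-count scaling, which lies to the right of the TMM value for each gene.

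The other genes of the pathway were taken from 9 lists by role, 134 genes in all, of which 133 were listed, 108 had any count and 51 were tested. Of these 51, 3 were called higher and 1 lower, near the background of 6.10%, and their median log2 change was 0.06. With total counts alone 9 of the 51 were called higher and 0 lower, against 1407 higher and 72 lower among all 8531 tested genes.

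Ligands and the R-spondin module were at the limit of detection, and the genes named from them were chosen after their values were seen. Of 19 WNT genes 8 had any count and 0 could be tested. The highest was Wnt5a, a ligand of noncanonical signalling, with 6, 6 and 9 counts in control hearts, against 12, 16 and 7 in treated ones, which puts the pooled ratio at 1.29 (95% exact interval 0.728 to 2.32). Of the 4 R-spondins, the ligands of Lgr4 and Lgr6, only Rspo1 had counts, with 4, 0 and 4 in control hearts, against 0, 1 and 0 in treated ones. Znrf3, the ubiquitin ligase that R-spondins hold back, had 15 counts over the controls and 26 over the treated hearts (ratio 1.34, 95% exact interval 0.682 to 2.71).

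Receptors and their partners other than the members gave 0 calls of 4 tested. The most abundant was Ryk, a WNT co-receptor, at a log2 difference of 0.14 ± 0.15 (edgeR adjusted p = 0.714). Wls, which carries WNT proteins to the cell surface, differed by 0.37 ± 0.17 (edgeR adjusted p = 0.248). Igfbp4, a binding protein that can also block WNT receptors, was the most abundant of the 2 tested inhibitors outside the members, at 0.34 ± 0.13 (edgeR adjusted p = 0.175). Total counts alone called both Wls and Igfbp4 higher.

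In the destruction complex and dishevelled list, 0 of 17 tested genes were called, with a median log2 change of 0.10. Ctnnb1, which encodes beta-catenin, was at 171 ± 17.9 CPM in controls and 168 ± 3.86 CPM in treated hearts (SD, n = 3; log2 -0.03 ± 0.11, edgeR adjusted p = 0.948). Among 13 tested TCF/LEF factors and nuclear partners the corepressor gene Tle4 was called lower and 12 were not called. It had 30, 31 and 45 counts in control hearts, against 26, 27 and 15 in treated ones, and fell by 1.01 ± 0.26 on the log2 scale (edgeR adjusted p = 0.0228). The log2 change was negative in all 15 alternative fits, but 5 did not call it. It was -0.71 with total counts alone and -1.01 with DESeq2 (adjusted p = 0.0802 and 0.0782). Without control 3 it was -0.80, without ISO+L-NAME 1 it was -1.04 and without the third treated library -0.82 (edgeR adjusted p = 0.112, 0.0569 and 0.109). Tle5, the most abundant gene of that list, differed by -0.15 ± 0.11 (edgeR adjusted p = 0.538). Planar polarity and other noncanonical genes gave 0 calls of 7, with Daam1 the most abundant at -0.46 ± 0.15 (edgeR adjusted p = 0.0785).

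Of 7 tested genes from the list of common beta-catenin targets, 3 were called higher, 0 lower and 4 not called. Over all tested genes 3.41% were called higher and 2.68% lower. The list was chosen with earlier results of these data known, so nothing is read from its share. Sox9, a transcription factor of cartilage and matrix programmes, had 14, 4 and 10 counts in control hearts, against 82, 40 and 43 in treated ones. It rose by 2.16 ± 0.33 on the log2 scale (edgeR adjusted p = 0.000199), with no overlap. Cd44, a hyaluronan receptor of leukocytes and stromal cells, rose by 1.65 ± 0.28, and Bambi, a pseudoreceptor for TGF-beta family ligands, by 1.18 ± 0.25 (edgeR adjusted p = 0.000547 and 0.00565). Sox9, Cd44 and Bambi were called in all 15 alternative fits. Control 2 was under the filter for Sox9 and Cd44, at 4 and 8 counts, so neither would have passed it on the controls alone. Ccnd2, a cyclin gene and the most abundant of the list, differed by 0.11 ± 0.11 (edgeR adjusted p = 0.674). The other way went Sox4 and Ccnd1, named after their values were seen, with differences of -0.79 ± 0.24 and -0.45 ± 0.15 that missed the threshold (edgeR adjusted p = 0.0502 and 0.0922). In the fit with no filter both were called lower (edgeR adjusted p = 0.00197 and 0.0385), so these calls depend on the filter. Genes of this list also answer to other pathways, and macrophage markers, 5 of 9 called higher, summed to 166 to 210 CPM in controls and 339 to 405 CPM in treated hearts. Of the 5, Cd68 passed the filter through the treated hearts alone, with 7 counts in each control. Whether macrophages carried part of the Cd44 difference was not tested.

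A further pair from the target list, Ccn4 and Ccn5, was singled out after the values were seen and had too few counts to be tested. Ccn4, a matricellular gene first described as WNT-induced, had 1, 1 and 0 counts in control hearts, against 14, 4 and 6 in treated ones, which puts the pooled ratio at 9.25 (95% exact interval 2.30 to 80.8), and 6.12 (1.30 to 57.5) without ISO+L-NAME 1. Ccn5 had 3, 0 and 0 counts in control hearts, against 17, 6 and 12 in treated ones, a ratio of 9.00 (2.84 to 45.7). Both had more counts in every treated heart than in any control. All control counts of Ccn5 were in control 1, so without that library the controls were at 0.

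**Figure D5:**
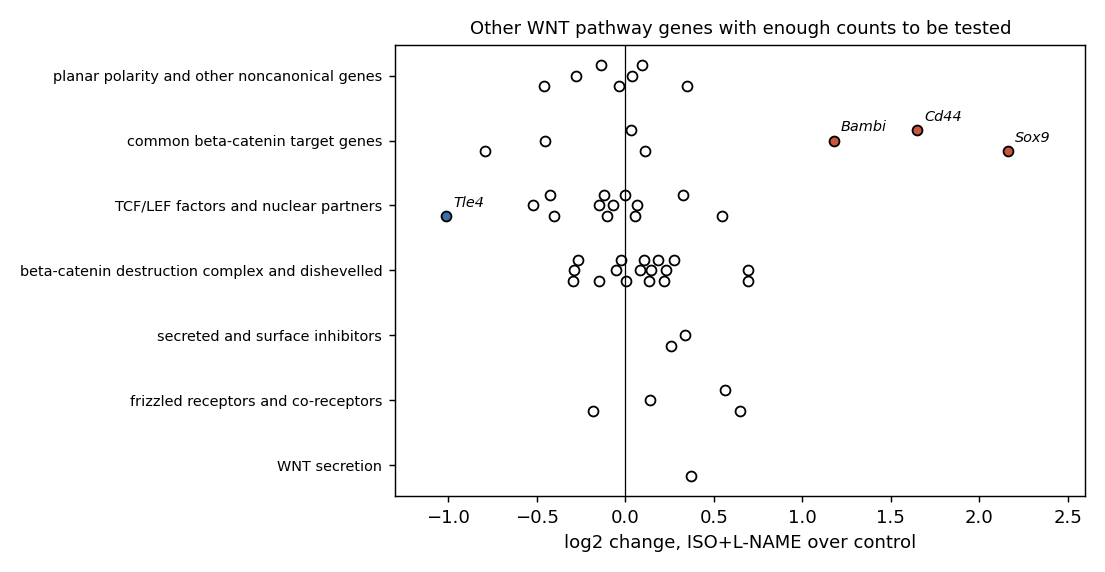
Fitted log2 change, ISO+L-NAME over control, of the other WNT pathway genes with enough counts, by role (points; red, called higher; blue, called lower; white, not called). Sox9, Cd44 and Bambi stand to the right among the common targets and Tle4 to the left, at -1.01.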

How the data were processed

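Total RNA of hearts was isolated with Trizol and made into 3′ libraries with a QuantSeq forward kit, per the labels' protocols. Use of bcl2fastq and of the build GRCm39 is given by the submitters' processing notes. Not given in the sources used here are the aligner, the counter, and whether strand or molecular identifiers entered the counting. Whole-number counts per gene were deposited by the authors and, beside them, a scaled signal headed CPM, a fixed multiple of the counts within each library, which was not used. No other listed gene overlaps a member, and 0 of 470 words of 31 bases from the last 500 bases of each member's longest coding transcript (GENCODE M21) occurred in a transcript of another gene.

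Genes were filtered with filterByExpr (minimum count 10, minimum total 15), scaled by TMM and compared by the quasi-likelihood test of edgeR 4.0.16 (R 4.3.3; glmQLFit, then glmQLFTest, with group as the only factor, Benjamini-Hochberg over all genes, threshold 0.05, two-sided). SEs were obtained by dividing the size of the log2 change by the root of F. Exact (Clopper-Pearson) intervals of pooled count ratios use the TMM-scaled library sizes and, like the Wilson intervals, cover counting error only. The fit was tested on simulated data. Within groups, libraries differed by 2.28 to 3.87 chi-square per degree of freedom, so none agreed within sampling noise.

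The members, the pathway and marker lists and the tests were chosen with earlier results of these data known. Named were all members, each called pathway gene, the most abundant tested gene of each role list, and the 5 genes nearest to Lgr6 by Pearson r of log2(CPM + 1) with a mean of at least 5 CPM. Alternatives were RLE and total-count scaling, 2 other filters, DESeq2 1.42.0, limma-voom (limma 3.58.1), a robust fit, TMM without mitochondrially encoded genes, a replicate block, and fits without each library in turn. Only marker lists set beside a result are described, and the others are not reported here.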

Additional observations from a re-analysis of the deposited data

How the results depend on the processing

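Sfrp1, Sox9, Cd44 and Bambi were called higher in all 15 alternative fits, and Lgr6 kept a negative difference in each. Lgr4 and Lrp6 kept a positive difference that passed in none of them. Fzd4 turned positive with total counts alone (0.28) and without control 3 (0.10; fits without 1 library ran from -0.16 to 0.10), and Lrp5 with total counts alone (0.20).

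Of the 10 members, 5 were called with no filter (4 higher), against 745 of 14537 genes (5.12%). With DESeq2 or limma-voom 1 of 7 was higher, against 197 and 269 of 8531 genes. In every fit the lower call was Lgr6, which chose the list. Leaving out 1 library gave 2 to 4 called, 1 to 3 higher and 1 lower in each case. Other pathway genes numbered 9 called (9 higher, 0 lower) with total counts alone and 8 (5 higher, 3 lower) with no filter. DESeq2 called 0 lower and the robust fit 2 lower. Without 1 library 3 to 6 were called, 3 to 4 higher and 0 to 2 lower. Over all genes, total counts alone called 1479 (1407 higher, 72 lower), DESeq2 335 (138 lower) and fits without 1 library 301 to 494 (179 to 272 higher, 122 to 222 lower; lowest without control 1, and 140 and 144 lower without ISO+L-NAME 2 and 3). The unfiltered fit tests more genes and the fits without 1 library use fewer hearts; the cause of the other shifts was not tested.

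Controls and treated hearts share replicate numbers. The correlations of same-numbered deviations were 0.06, -0.03 and -0.01, and control 2 correlated best with ISO+L-NAME 3 (0.08). Values this small show no pairing by number, but they cannot exclude that same-numbered hearts were handled together. With the replicate number as a block 560 genes, 3 members and 5 other pathway genes (2 lower) were called. The pooled ratios without each library and the unfiltered fit with total counts were added after seeing the data. Depth limits Axin2, Dkk3, Sfrp2, the WNT ligands and the R-spondins, each under 20 counts in most libraries.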
